A study of Mus musculus with 32 samples.

Results

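Among the 55419 transcripts of the mouse expression table, 55 stood high in both clear cell sarcoma and osteosarcoma and low in both synovial sarcoma and control tissue. They were chosen from the medians of the 4 tissue types, in RPKM, which scales reads by transcript length and library depth. A member had a median of at least 5 RPKM in both clear cell sarcoma and osteosarcoma, and the lower of those medians, with 1 added, was at least 3 times the synovial sarcoma median and the control median with 1 added. The clear cell sarcoma and osteosarcoma medians of a member, with 1 added, also lay within 4 times of each other. Of the 7415 transcripts at or above 5 RPKM in both tumour types, called the well-expressed transcripts here, 60 met the second condition and 55 of these the third. The levels of the members by tissue type are what chose them, so they are given as a description, with no test.

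RNA sequencing was done on 32 mouse libraries, 13 from clear cell sarcomas, 7 from osteosarcomas, 6 from synovial sarcomas and 6 from control samples. TATCre initiated 4 of the clear cell sarcomas, Rosa26CreER 5, Prx1CreERT2 2 and Bmi1IRESCreERT2 2, and all 13 titles carry EA1. TATCre is a Cre recombinase protein that enters cells, and the other forms are made in the animal's own cells under the gene named first, with CreER and CreERT2 being switched on by tamoxifen. The 7 osteosarcoma titles name Rb1 among their alleles, 4 of them with Col1Cre and 3 with Prx1Cre. Col1 stands for a type I collagen promoter, which is active in bone-forming cells, and Prx1 for a promoter of early limb mesenchyme. Each synovial sarcoma title opens with Myf5-SSM2/PLUC, where Myf5 is a gene of the muscle lineage, and the labels do not spell out SSM2, PLUC or EA1. Chest stands in the titles of 5 controls and Bone in that of 1, with no further word on the tissue. No allele in the titles is common to clear cell sarcoma and osteosarcoma, and the Prx1 promoter, in 2 clear cell sarcomas as CreERT2 and in 3 osteosarcomas as Cre, is the only driver that both name. The labels give no age, sex or strain. Tumour type and genotype therefore cannot be told apart.

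Clear cell sarcoma in patients is a soft tissue tumour driven by a fusion of EWSR1 with the transcription factor ATF1, and it expresses melanocyte genes. Osteosarcoma is a tumour whose cells lay down bone matrix. Synovial sarcoma is driven by a fusion of SS18 to a member of the SSX family, which alters chromatin remodelling. The transcripts here carry UCSC identifiers, and 0 of them matched a gene name in the tables used, so no gene name, role, coordinate or sequence is given. For the same reason the tissue labels were not checked against marker genes. Members other than 4 printed identifiers are called by rank, from 1 to 55, in order of how far the lower tumour median, with 1 added, exceeded the higher of the synovial sarcoma and control medians with 1 added. In bulk tissue, fewer cells of a type and less RNA per cell cannot be told apart, and this holds for every level below.

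Depth was read from the steps of the RPKM values and ran from 8.11 to 13.1 M reads per library, with 8.11 to 11.5 M in clear cell sarcoma, 9.33 to 11.98 M in osteosarcoma, 8.73 to 13.1 M in synovial sarcoma and 9.18 to 12.05 M in controls. The osteosarcoma library Prx1Cre N42 stood apart from the other 6 on the members, as described below. Several of the results that rest on it are given with and without it. Nothing in the labels says that replicates came from separate animals, and some titles share a number, so a p-value here speaks of the spread among libraries, which may be partly technical.

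The members covered a wide range of levels. The lower of the clear cell sarcoma and osteosarcoma medians was between 5 and 10 RPKM for 9 members, between 10 and 50 RPKM for 22, between 50 and 100 RPKM for 10, between 100 and 1000 RPKM for 10, and above 1000 RPKM for 4. The ratio of the lower tumour median to the higher synovial sarcoma or control median, each with 1 added, had a median of 4.20 over the members and was at least 5 for 18. The 2 highest ratios, 468 and 273, belonged to transcripts of 3 bases whose synovial sarcoma and control medians were both listed at 0. At the low end, the 3 members nearest the limit had ratios of 3.003, 3.04 and 3.06, and the 3 transcripts just outside it had 2.99, 2.96 and 2.93. The limit on level was less crowded, with 5.10, 5.74 and 5.91 RPKM just inside it and 3.27, 2.95 and 2.87 RPKM just outside. For the ratio between the 2 tumour medians, the values just inside the limit were 3.10, 2.92 and 2.84, and those just outside were 4.40, 5.77 and 6.44.

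Transcript length, also recovered from the steps of the values, ran from 3 to 5809 bases over the members, with a median of 1162 bases against 1116 bases over the well-expressed transcripts. Of the members, 11 (20%) were under 100 bases, against 12.2% of the well-expressed transcripts. The 6 members under 10 bases were ranks 1, 2, 3, 20, 22 and 31. For such short transcripts each read is worth many RPKM: the clear cell sarcoma median of rank 1, 545 RPKM, came from 15 reads. The sources used here do not say what these lengths stand for, and members under 100 bases are counted below but not printed by identifier.

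**Figure D1:**
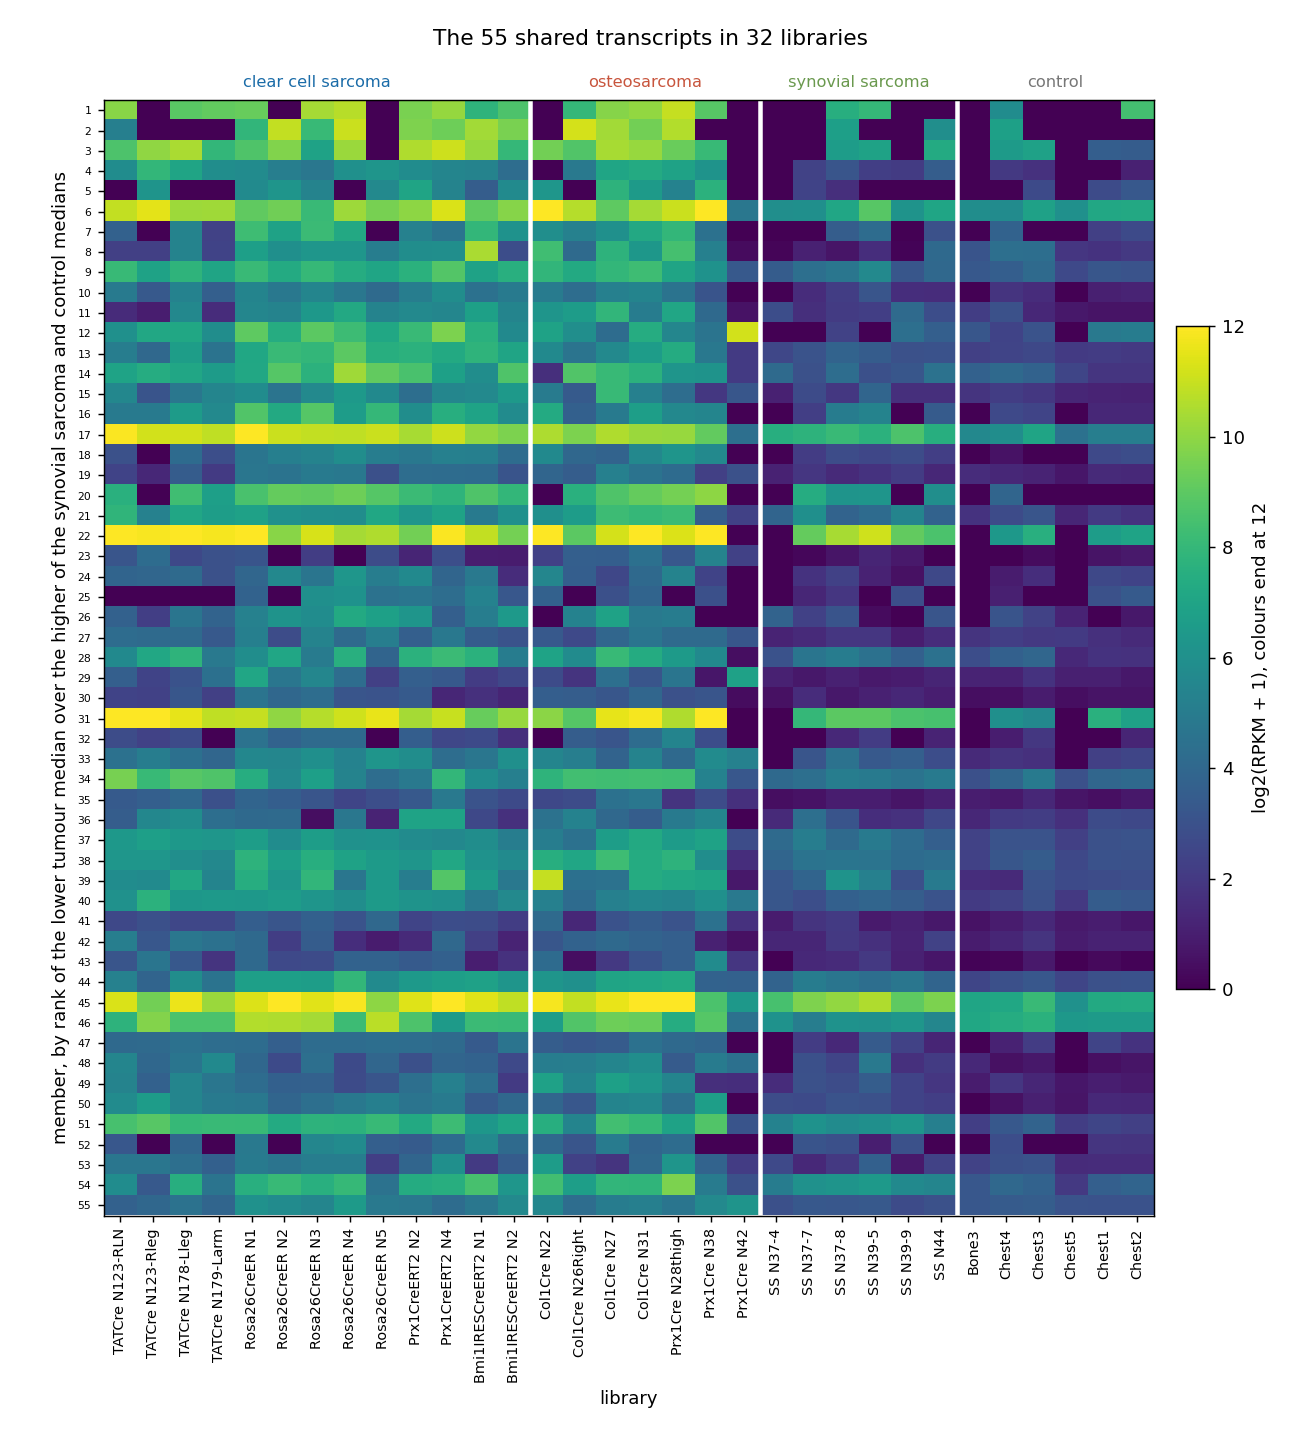
The 55 members (by rank, top to bottom) in the 32 libraries (left to right, by tissue type), coloured by log2(RPKM + 1) with colours ending at 12. Most members are bright across the clear cell sarcoma and osteosarcoma columns and dark in the synovial sarcoma and control columns, and the column of osteosarcoma Prx1Cre N42 is dark, with 20 members listed at 0.

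The transcript uc008qcz.2, of 499 bases and rank 6, had the largest ratio, 9.67, among members of at least 100 bases. In TATCre clear cell sarcomas it stood at 1203, 1233, 1879 and 2867 RPKM, and in Rosa26CreER clear cell sarcomas at 278, 537, 670, 735 and 1215 RPKM. The Prx1CreERT2 clear cell sarcomas had 986 and 2516 RPKM and the Bmi1IRESCreERT2 clear cell sarcomas 536 and 910 RPKM. All 13 values were within about a factor of 10, whereas the osteosarcomas spread much further. The Col1Cre osteosarcomas had 524, 1320, 1608 and 5373 RPKM, and the Prx1Cre osteosarcomas 26.3, 2071 and 20703 RPKM. Its median over all clear cell sarcomas was 986 RPKM and over all osteosarcomas 1608 RPKM. In synovial sarcoma it ran from 59.8 to 464 RPKM with a median of 101, and in controls from 54.2 to 150 RPKM with a median of 89.9. Apart from Prx1Cre N42 at 26.3 RPKM and Rosa26CreER N3 at 278 RPKM, every clear cell sarcoma and osteosarcoma library lay above every synovial sarcoma and control library.

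The next member of at least 100 bases, uc007dee.2, is the longest of the set at 5809 bases and has rank 8 with a ratio of 9.05. It ran from 3.76 to 1444 RPKM in clear cell sarcoma, with a median of 57.1, and from 0.27 to 347 RPKM in osteosarcoma, with a median of 79.6. In synovial sarcoma it ran from 0.0947 to 16.1 RPKM with a median of 0.87, and in controls from 2.39 to 20.1 RPKM with a median of 5.42. The TATCre clear cell sarcomas had 3.76, 3.82, 4.36 and 40.4 RPKM, and the Rosa26CreER clear cell sarcomas 33.3, 62.3, 77.9, 79.1 and 110 RPKM. One Bmi1IRESCreERT2 clear cell sarcoma had 1444 RPKM and the other 6.21 RPKM. The tissue types overlapped: 3 TATCre tumours, the lower Bmi1IRESCreERT2 tumour and the osteosarcoma Col1Cre N26Right, at 16.5 RPKM, were inside the control range, and Prx1Cre N42 was below it.

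A further 2 members with more than 1000 RPKM in both tumour types and more than 1000 bases show the pattern at high depth. Rank 17, of 1539 bases, had 794 to 5142 RPKM in clear cell sarcoma and 19.7 to 1538 RPKM in osteosarcoma, against 180 to 394 RPKM in synovial sarcoma and 21.2 to 127 RPKM in controls. Rank 45, of 1682 bases, had 689 to 5972 RPKM in clear cell sarcoma and 82.4 to 5989 RPKM in osteosarcoma, against 361 to 1531 RPKM in synovial sarcoma and 65.2 to 282 RPKM in controls. In both, the lowest osteosarcoma value was that of Prx1Cre N42, and rank 17 separated the other 19 tumours from all synovial sarcomas and controls.

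Few members separated the libraries without exception. In 4 of the 55, ranks 27, 35, 40 and 55, every clear cell sarcoma and osteosarcoma library was above every synovial sarcoma and control library, as was true of 0.0328% of the 15230 transcripts with at least 1 RPKM in at least 6 libraries. Rank 40, of 1901 bases, had 27.5 to 211 RPKM in clear cell sarcoma and 17.3 to 64.7 RPKM in osteosarcoma, against 6.27 to 13.9 RPKM in synovial sarcoma and 3.04 to 10.1 RPKM in controls. Rank 27, of 3593 bases, had 5.98 to 39.7 RPKM in clear cell sarcoma and 5.37 to 24.1 RPKM in osteosarcoma, against 0.92 to 2.75 RPKM in synovial sarcoma and 1.67 to 3.63 RPKM in controls. The lower tumour medians of the 4 were 5.91 to 36.6 RPKM, so none was among the most abundant members. Without Prx1Cre N42 the count was 9, against 0.112% of all transcripts. The clear cell sarcomas alone were above every synovial sarcoma and control library in 18 members (1.10% of all transcripts), and the osteosarcomas alone in 6 (0.538%), or 18 without Prx1Cre N42 (1.89%). The rule used this contrast, so nothing is read from these shares.

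**Figure D2:**
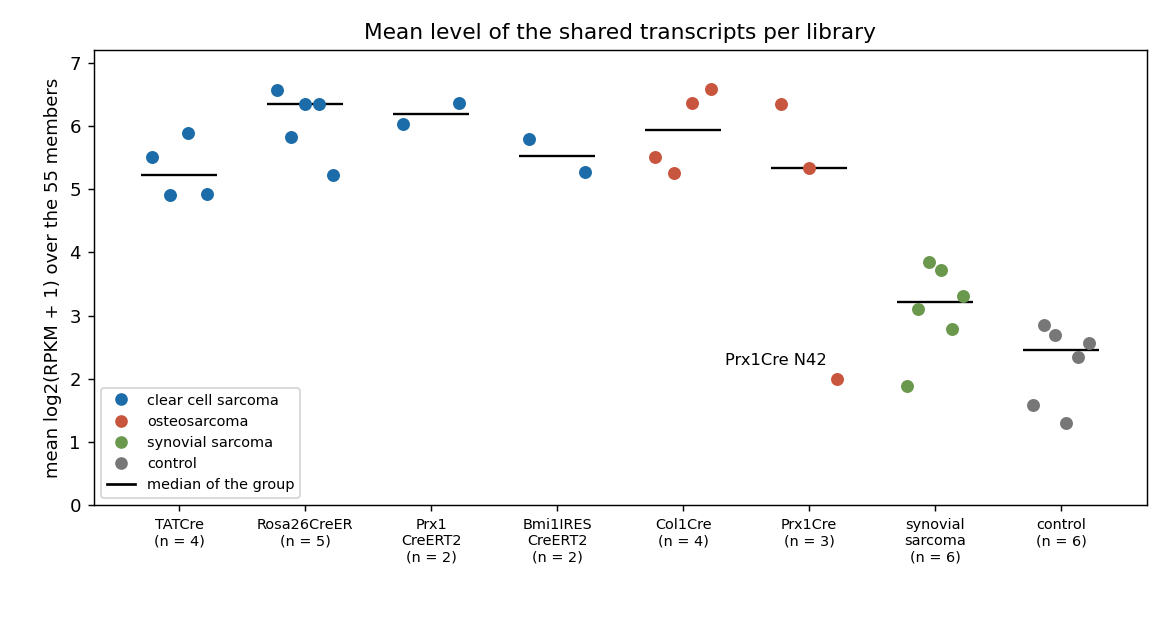
Mean of log2(RPKM + 1) over the 55 members in each library (vertical axis), by group (horizontal axis), with 1 point per library and a line at the median of the group. The clear cell sarcomas lie between 4.91 and 6.56 and 6 of the 7 osteosarcomas between 5.25 and 6.58, above the synovial sarcomas at 1.89 to 3.86 and the controls at 1.301 to 2.85, while Prx1Cre N42 is at 1.99.

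The mean of log2(RPKM + 1) over the members summarises each library. It was 4.91 to 6.56 in clear cell sarcoma with a median of 5.82, and 1.99 to 6.58 in osteosarcoma with a median of 5.50. It was 1.89 to 3.86 in synovial sarcoma with a median of 3.21, and 1.301 to 2.85 in controls with a median of 2.46. Between 41 and 55 members were at or above 5 RPKM in a clear cell sarcoma, and between 46 and 55 in each osteosarcoma but Prx1Cre N42, which had 19. The synovial sarcomas had 21 to 34 such members and the controls 9 to 28. The members were thus not silent in synovial sarcoma or in control tissue. Zeros clustered in a few libraries, with 20 members listed at 0 in Prx1Cre N42, 22 in the synovial sarcoma N37-4, 20 in the control Bone3 and 22 in the control Chest5.

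To see how the set holds in a library that did not choose it, the rule was applied with each library left out in turn, which gave 46 to 68 members, and the left-out library's own values were then read. A clear cell sarcoma left out in this way was at least 3 times the higher of the synovial sarcoma and control medians, with 1 added, in 44.6% to 98.0% of the transcripts chosen without it. The lowest share was that of TATCre N179-Larm and the highest that of Rosa26CreER N1. For the osteosarcomas the share was 44.4% to 88.5%, apart from Prx1Cre N42 at 8.82%. Left-out synovial sarcomas passed the same bar in 0% to 23.8% of transcripts, with N39-5 the highest, and left-out controls in 0% to 9.26%. The shares of clear cell sarcoma and of the other 6 osteosarcomas did not overlap those of synovial sarcoma and controls. Prx1Cre N42 was set aside here after its value was seen. Libraries with the same title number as the left-out library still helped to choose the set, so they may not be independent of it. The same share was not counted over the well-expressed transcripts, and these shares are a description.

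The osteosarcoma Prx1Cre N42 did not carry the pattern that its type was chosen for. It was the lowest of the 7 osteosarcomas in 42 of the 55 members, ties at 0 included, and was at or below the higher of the synovial sarcoma and control medians in 42. Its median difference on the log2(RPKM + 1) scale from the median of the other 6 osteosarcomas was -4.67 over the members and -0.34 over the well-expressed transcripts. It had at least 5 RPKM in 34.5% of the members and in 87.0% of the well-expressed transcripts, a share that was 85.9% to 97.9% over the 7 osteosarcomas. Not all members were low there. Rank 12, of 78 bases, had 2298 RPKM in Prx1Cre N42 against at most 171 RPKM in the other osteosarcomas, and ranks 29 and 55 also had their highest osteosarcoma value in it, at 115 and 73.6 RPKM. With the rule applied without Prx1Cre N42, 68 transcripts were chosen, and these held all 55 members. What sets this library apart was not tested.

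**Figure D3:**
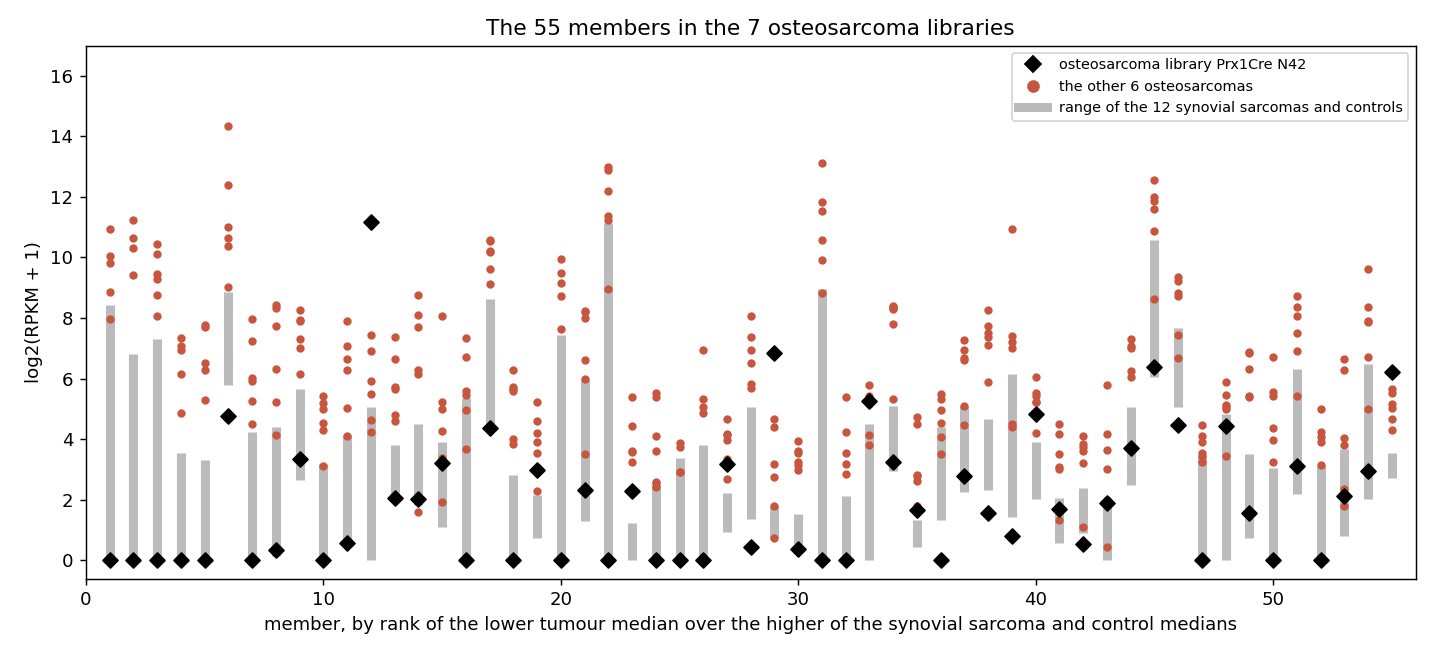
log2(RPKM + 1) (vertical axis) of each member, by rank (horizontal axis), in the osteosarcoma library Prx1Cre N42 (black diamonds) and the other 6 osteosarcomas (red points), with a grey bar for the range of the 12 synovial sarcoma and control libraries. In 42 members the diamond is the lowest value, 20 diamonds lie at 0, and ranks 12, 29 and 55 are the 3 members highest in Prx1Cre N42.

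Between the 2 tumour types the members were balanced. The clear cell sarcoma median was the higher in 28 members and the osteosarcoma median in 27, and the ratio of the clear cell sarcoma median to the osteosarcoma median ran from 0.34 to 3.10 with a median of 1.01. The medians were within a factor of 2 in 44 members. Rank 13 leaned most to clear cell sarcoma, with medians of 155 RPKM there and 49.2 RPKM in osteosarcoma. Rank 34 leaned most to osteosarcoma, with medians of 107 RPKM in clear cell sarcoma and 315 RPKM in osteosarcoma. In 0 members did the clear cell sarcoma and osteosarcoma libraries separate without overlap, and the share over all transcripts was not counted. The rule limited the ratio of the medians, so the balance and this count are a description. Among the tissues where the members were low, the synovial sarcoma median was above the control median in 46 members, below it in 7, and both were listed at 0 in 2, while it was above in 79.2% of the well-expressed transcripts. The synovial sarcoma median was under 1 RPKM in 8 members and the control median in 16.

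The members varied more within a tissue type than the well-expressed transcripts did. The median SD of log2(RPKM + 1) was 1.16 over the members and 0.54 over the well-expressed transcripts in clear cell sarcoma, and 2.05 against 0.77 in osteosarcoma. In osteosarcoma without Prx1Cre N42 it was 1.28 against 0.69. In synovial sarcoma it was 0.92 against 0.40, and in controls 0.74 against 0.41. Over transcripts of at least 100 bases the medians were 1.09 against 0.52 in clear cell sarcoma. With Prx1Cre N42 included they were 1.94 against 0.75 in osteosarcoma. They were 0.72 against 0.39 in synovial sarcoma and 0.66 against 0.39 in controls. The part of expression level in this difference was not tested.

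Some members stood next to each other in the deposited table. Counting members within 2 rows of one another, 16 members fell into 7 runs, which left 46 separate places. The runs were ranks 4, 9 and 10, ranks 13, 18 and 20, ranks 3 and 28, ranks 7 and 37, ranks 14 and 26, ranks 31 and 50, and ranks 34 and 42. Over the 20 clear cell sarcomas and osteosarcomas, with each type's mean removed, the correlation of log2(RPKM + 1) within runs had a median of 0.80 over 11 pairs and ran from 0.34 to 0.97. Over the other 1474 pairs the median was 0.33. Prx1Cre N42 is among these 20 libraries, and these medians were not computed without it. The points share libraries and depth, and overlapping transcripts could share reads, so members of a run may not be separate measurements. The correlation across osteosarcomas moved with 1 library. The median correlation over pairs was 0.15 across the 13 clear cell sarcomas and 0.53 across the 7 osteosarcomas, but 0.13 across the 6 osteosarcomas without Prx1Cre N42.

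Whether the members differ with the Cre that started a clear cell sarcoma was tested with limma on log2(RPKM + 1), with Benjamini-Hochberg adjustment over 15195 transcripts and a threshold of 0.05. All 55 members passed the filter on low values. An F test over the 4 groups called 3 members (5.45%), while 10.7% of all tested transcripts were called. At an unadjusted limma p under 0.05 there were 27 members (49.1%) and 32.7% of all tested transcripts. The median of these same 13 clear cell sarcomas helped to choose the members, and the part of that choice in these shares was not tested. Rank 13 had medians of 27.5 RPKM in TATCre, 183 RPKM in Prx1CreERT2, 177 RPKM in Bmi1IRESCreERT2 and 242 RPKM in Rosa26CreER clear cell sarcomas (limma adjusted p = 0.0214). Rank 55 had medians of 14.6 RPKM in TATCre, 21.9 RPKM in Prx1CreERT2, 38.03 RPKM in Bmi1IRESCreERT2 and 54.9 RPKM in Rosa26CreER clear cell sarcomas (limma adjusted p = 0.0339). Rank 51 had medians of 319 RPKM in TATCre, 229 RPKM in Prx1CreERT2, 104 RPKM in Bmi1IRESCreERT2 and 218 RPKM in Rosa26CreER clear cell sarcomas (limma adjusted p = 0.0422). Without TATCre N123-RLN the F test called 0 members and 5.50% of all transcripts, with 24 members (43.6%) and 27.8% of all transcripts at an unadjusted limma p under 0.05. Without TATCre N178-Lleg it called 9 members (16.4%), the share being 16.5% over all transcripts. It called 1 member without Rosa26CreER N3 (5.64% of all transcripts) or without TATCre N179-Larm (5.04%), and 6 without Rosa26CreER N5 (8.57%).

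Between the 2 larger groups, 10 members fell in TATCre clear cell sarcomas relative to Rosa26CreER clear cell sarcomas and 1 rose. The 11 called members were 20% of the set, against 12.7% of all tested transcripts. The lower calls were 18.2% of the members against 7.16% of all transcripts, and the 1 higher call 1.82% against 5.53%. The median log2 fold change was -0.73 over the members, -0.12 over the well-expressed transcripts and -0.28 over all tested transcripts, with 34 members below 0 and 21 above. The TATCre tumours are 4 of the 13 clear cell sarcomas whose median chose the members, and the part of that choice in the direction was not tested. At an unadjusted limma p under 0.05, 19 members were lower and 10 higher, together 52.7% of the set against 33.6% of all transcripts. Over all transcripts 1088 were called lower and 840 higher. After quantile normalization, which brought the median log2 fold change of all transcripts to -0.0020, 10 members were lower and 3 higher, while over all transcripts 635 were lower and 1087 higher.

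The clearest fall was that of rank 13, of 1854 bases. It had 15.9 to 102 RPKM in the 4 TATCre tumours and 139 to 496 RPKM in the 5 Rosa26CreER tumours, with no overlap. The means were 43.2 ± 39.6 RPKM (SD, n = 4) and 267 ± 139 RPKM (SD, n = 5), a log2 fold change of -2.83 with a standard error of 0.51 (limma adjusted p = 0.0066). Ranks 13 and 55 were the 2 of the 11 that passed in each of the 13 fits with a library left out, and the other 9 lost their call in 4 to 8 of them. Rank 18, which lies in the same run, had 0 to 17.2 RPKM in TATCre and 24.3 to 57.6 RPKM in Rosa26CreER tumours, also without overlap. Rank 26, of 258 bases, had 3.70 to 24.7 RPKM in TATCre and 37.1 to 157 RPKM in Rosa26CreER tumours, and its groups did not overlap either. Rank 55 had 12.3 to 22.2 RPKM in TATCre and 28.2 to 91.9 RPKM in Rosa26CreER tumours, a log2 fold change of -1.70 (limma adjusted p = 0.0115). Rank 38 fell least, with a log2 fold change of -1.05, and its TATCre values of 47.8 to 79.0 RPKM lay below the Rosa26CreER values of 92.4 to 215 RPKM. The other lower calls were ranks 16, 19 and 44, of which rank 16 is under 100 bases, and the 2 transcripts named next. With the N123 libraries averaged, ranks 16, 19, 26 and 38 lost their call (limma adjusted p = 0.0512 to 0.0591). Ranks 13, 18, 44 and 55 kept theirs.

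The transcript uc008rbk.1, of 2604 bases and rank 11, had 0.97, 1.78, 1.89 and 47.6 RPKM in TATCre tumours and 40.3, 40.7, 45.0, 83.0 and 149 RPKM in Rosa26CreER tumours. The groups overlapped through 1 library, TATCre N178-Lleg at 47.6 RPKM, and the other 3 TATCre tumours were below the synovial sarcoma range of 2.02 to 16.7 RPKM. The Prx1CreERT2 tumours had 43.9 and 49.0 RPKM and the Bmi1IRESCreERT2 tumours 41.0 and 113 RPKM, near the Rosa26CreER values. Its log2 fold change was -3.58 with a standard error of 0.85 (limma adjusted p = 0.0238), and the call was lost in 5 of 13 fits with a library left out and with the N123 libraries averaged (limma adjusted p = 0.0585). Across the osteosarcomas it had 31.3, 76.3, 99.8 and 241 RPKM with Col1Cre and 0.50, 16.3 and 134 RPKM with Prx1Cre, and in controls it had 0.53 to 6.82 RPKM.

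The transcript uc008khg.1, of 158 bases and rank 25, was listed at 0 in all 4 TATCre tumours. In Rosa26CreER tumours it was listed at 0 in 1 library and had 12.7, 21.9, 62.01 and 69.2 RPKM in the other 4. It passed the test (limma adjusted p = 0.0314), but no fold is given because a whole group is listed at 0. The call was lost in 6 of 13 fits with a library left out and with the N123 libraries averaged (limma adjusted p = 0.0627). It had 18.4 and 24.1 RPKM in the Prx1CreERT2 tumours and 8.65 and 39.1 RPKM in the Bmi1IRESCreERT2 tumours, so no other group of clear cell sarcomas was listed at 0 throughout. It was also listed at 0 in 3 of the 7 osteosarcomas, 3 of the 6 synovial sarcomas and 3 of the 6 controls.

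The single member that rose in TATCre tumours was rank 34, of 696 bases. It had 273, 413, 476 and 745 RPKM in TATCre tumours and 18.3, 39.8, 49.9, 107 and 176 RPKM in Rosa26CreER tumours, with no overlap and a log2 fold change of 2.91 with a standard error of 0.71 (limma adjusted p = 0.0263). The call was lost without Rosa26CreER N2, Rosa26CreER N4, TATCre N123-RLN or TATCre N179-Larm (limma adjusted p up to 0.0711). The Prx1CreERT2 tumours had 27.6 and 249 RPKM and the Bmi1IRESCreERT2 tumours 35.6 and 55.99 RPKM. Its neighbour in the table, rank 42, had 8.69 to 33.7 RPKM in TATCre and 0.88 to 16.2 RPKM in Rosa26CreER tumours, and the groups overlapped (log2 fold change 1.96, limma adjusted p = 0.0967). Of the 2 transcripts that led the ratio, uc008qcz.2 had a log2 fold change of 1.45 in TATCre against Rosa26CreER tumours (limma adjusted p = 0.0567) and uc007dee.2 one of -3.02 (limma adjusted p = 0.117), and neither passed the threshold. uc007dee.2 passed without either Bmi1IRESCreERT2 library (limma adjusted p = 0.0169 for both), and uc008qcz.2 passed without Rosa26CreER N4 (limma adjusted p = 0.0472) and without TATCre N178-Lleg (limma adjusted p = 0.0440).

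**Figure D4:**
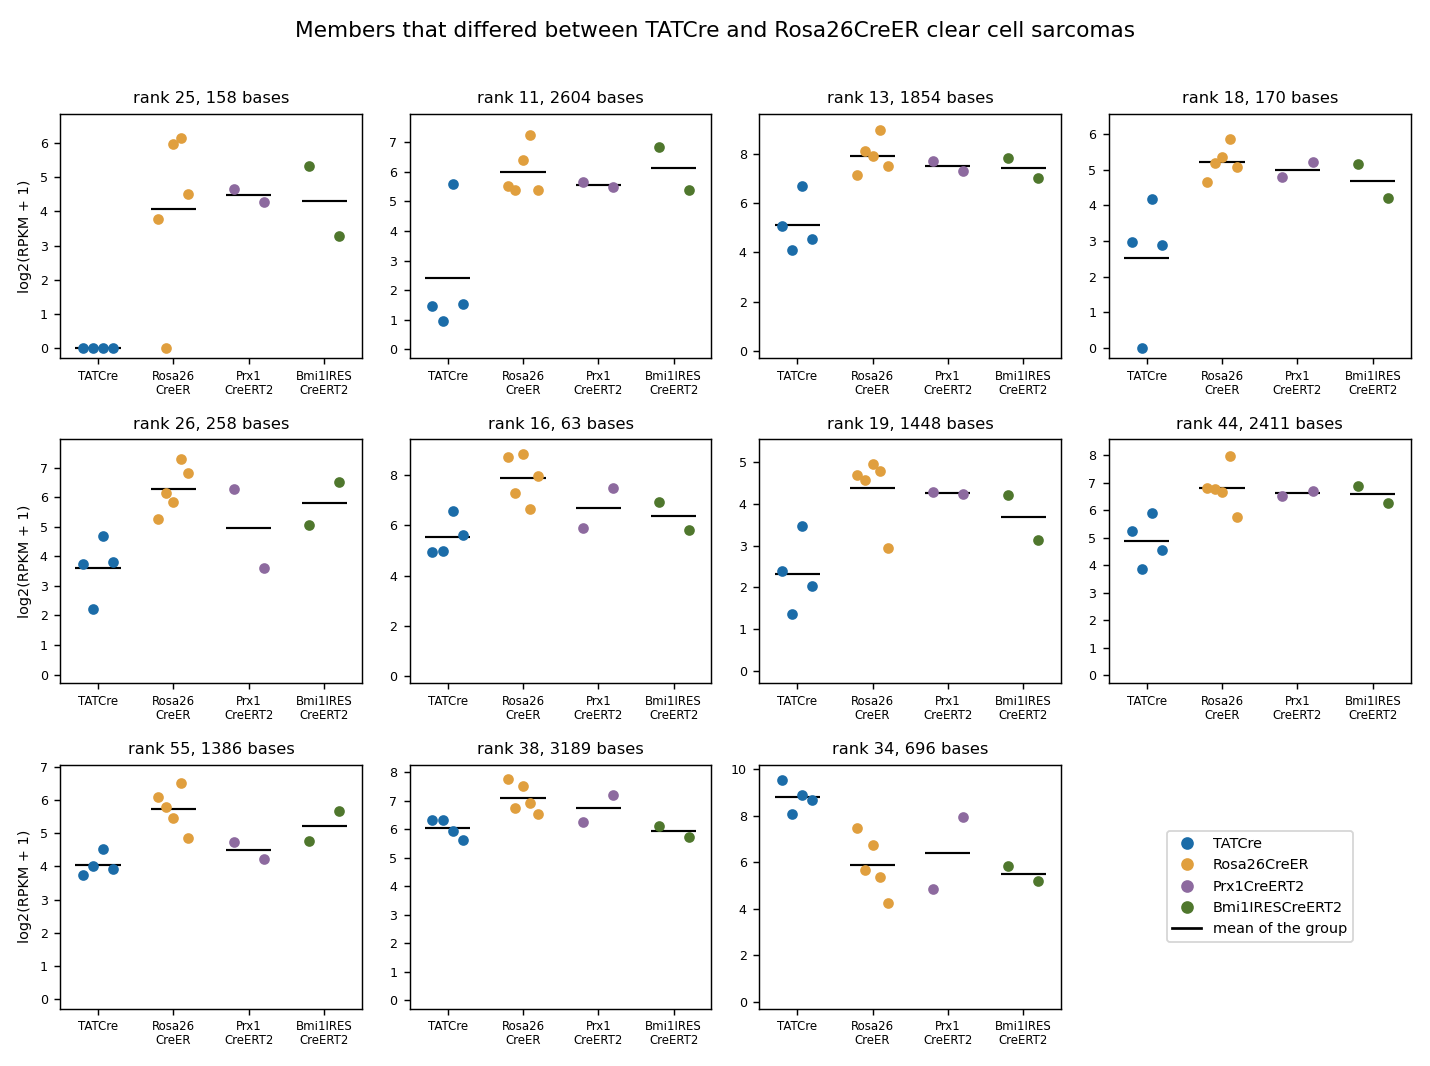
log2(RPKM + 1) (vertical axis) of the 11 members called between TATCre and Rosa26CreER clear cell sarcomas, 1 panel per member, in the 4 Cre groups (horizontal axis), with 1 point per library and a line at the mean of the group. In 10 panels the TATCre points lie mostly below the Rosa26CreER points, rank 25 is listed at 0 in all 4 TATCre libraries, and in the panel of rank 34 the TATCre points lie above.

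The number of calls rested on single libraries, over the members and over all transcripts. Without Rosa26CreER N2 it was 5 members (9.09%) against 6.55% of all transcripts, without Rosa26CreER N3 4 (7.27%) against 5.75%, and without Rosa26CreER N4 6 (10.9%) against 6.43%. Without TATCre N123-RLN it was 3 members (5.45%) against 6.08% of all transcripts, without TATCre N123-Rleg 5 (9.09%) against 7.65%, and without TATCre N179-Larm 2 (3.64%) against 4.84%. It stayed between 10 and 13 members when any of the other 7 clear cell sarcomas was left out. Without TATCre N178-Lleg the 11 members called (20%) stood against 21.4% of all transcripts. The members' share was therefore below that of all transcripts without TATCre N123-RLN, N178-Lleg or N179-Larm, and above it without any of the other 10 libraries. With the 2 TATCre libraries that share the title number N123 averaged into 1, 6 members were called (10.9%), 5 lower and 1 higher, against 8.40% of all transcripts, 572 lower and 699 higher.

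Between Col1Cre and Prx1Cre osteosarcomas, 0 members were called by limma, as were 0% of the 12623 transcripts tested. At an unadjusted limma p under 0.05 there were 6 members (10.9%), all higher in Col1Cre, and 570 transcripts in all (4.52%). The smallest p belonged to rank 49, of 4354 bases, which had 42.3 to 118 RPKM in the 4 Col1Cre tumours and 1.96, 2.04 and 41.2 RPKM in the 3 Prx1Cre tumours (log2 fold change 3.51, limma adjusted p = 0.977). Rank 9, of 1162 bases, had 157 to 309 RPKM in Col1Cre and 9.20, 69.5 and 129 RPKM in Prx1Cre tumours (log2 fold change 2.35, limma adjusted p = 0.977). The groups did not overlap in either, as in 4 of the 55 members, and the share over all transcripts was not counted. In neither did the difference pass the adjusted threshold. Both comparisons include Prx1Cre N42. The median log2 fold change was 1.58 over the members, 0.26 over the well-expressed transcripts and 0.23 over all tested transcripts, with 43 members above 0. Without Prx1Cre N42 it was 0.15 over the members and 0.19 over all. The Col1Cre tumours are 4 of the 7 osteosarcomas whose median chose the members, and the part of that choice in the direction was not tested. The fit without Prx1Cre N42 had 2 members (3.64%) and 4.83% of all transcripts at an unadjusted limma p under 0.05. For uc008qcz.2 and uc007dee.2 the log2 fold changes of 0.57 and 1.96 became -2.07 and -0.20 without that library.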

How the data were processed

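Mouse transcript levels were deposited as RPKM values in 1 table, and per the submitters' processing notes CASAVA 1.8.2, Novoalign 2.07.03 and the build mm9 were used. The sources used here name neither the program that counted reads nor the transcript models. RNA was prepared with an RNeasy kit with DNase and a TruSeq kit, per the labels' protocols. Each of the 32 columns was matched to a library by title, and 0 were left over. The human tumour table of the series was not used here. The members and lists were chosen with earlier results of these data known.

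RPKM values are not counts, so tests ran on log2(RPKM + 1) with limma 3.58.1 (eBayes with an intensity trend, two-sided, R 4.3.3), fitted on all transcripts of the deposited table that passed the filter. That scale understates the change of transcripts with low RPKM. The 13 clear cell sarcomas were fitted together on 15195 transcripts with at least 1 RPKM in at least 2 libraries, and the 7 osteosarcomas on 12623 with at least 1 RPKM in at least 3. No covariate was used, as the labels give none. No library was dropped from a main value and nothing was imputed.

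Depths came from ratios of RPKM between libraries over the 500 lowest shared transcripts, and lengths from the steps of each transcript. A length was found for 16376 transcripts, and 99.9% of the 13772 tested came out as whole numbers of bases. This recovery and the limma fits were each tested on simulated data. A value listed at 0 may be a failed estimate. The 4 printed identifiers were taken by a rule: the 2 members of at least 100 bases with the largest ratio and the 2 with the largest fall among the TATCre calls. Ranks described beside them were picked after their values were seen. Other settings tried were the pseudocount, the filter, 2 scalings, a length minimum, no trend, other limits and class means for the rule, averaged libraries with shared title numbers, a block and each library left out. A further allele in the osteosarcoma titles is not reported here.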

Additional observations from a re-analysis of the deposited data

Results flagged for a closer look

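Among the 30 groups of 4 to 7 libraries examined, 4 held a library whose gap to the nearest other was too large a share of the group's range by Dixon's test, and chance marks about 1 group in 20. On the log2(RPKM + 1) scale, uc007dee.2 stood at 5.37 in TATCre N178-Lleg, high among the 4 TATCre clear cell sarcomas, and at 4.10 in the synovial sarcoma N44, high among the 6 synovial sarcomas. The same TATCre library was high for uc008rbk.1, at 5.60. The mean over the members was 1.99 in Prx1Cre N42, low among the 7 osteosarcomas.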

How the results depend on the processing

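The set held 55 members as chosen, 87 with class means in place of medians (48 shared), 149 with a ratio of at least 2 and 34 with a ratio of at least 4, and 46 to 68 with a library left out. The other 7 settings kept the count within 1.5 times. The F test over Cre groups called 3 members, 5 with a filter at 5 RPKM (9.09% against 12.9% of all transcripts), 8 of the 44 of at least 100 bases (18.2% against 12.3%), and 0 to 9 with a library left out. TATCre against Rosa26CreER called 11, 6 with the N123 libraries averaged and 2 to 13 with a library left out. Median ratio scaling gave 9 members lower and 1 higher, 905 lower and 977 higher over all transcripts, and moved the median of all transcripts to -0.18. Col1Cre against Prx1Cre called 0, and 0 to 1 with a library left out. The 1 was without Prx1Cre N28thigh (1.82% of members against 0.132% of all transcripts). For 5 same-numbered pairs across Cre groups, correlations of the deviations from group means ran from -0.35 to 0.38 and 1 was over 0.1. In a group of 2 libraries these deviations mirror each other, so the pairs are not independent. They cannot show whether same-numbered libraries share animals. With the title number as a replicate block the F test called 10 members (18.2% against 15.1% of all transcripts). TATCre against Rosa26CreER then called 12 (21.8% against 15.7%), at an estimated block correlation of -0.15. That block also joins same-numbered libraries of different Cre groups, so it is not a correction for shared animals. With the N123 libraries averaged the F test called 2 (3.64% against 9.23% of all transcripts). uc008qcz.2 passed in TATCre against Rosa26CreER over transcripts of at least 100 bases (limma adjusted p = 0.0482) and with the block (limma adjusted p = 0.0465). In Col1Cre against Prx1Cre, the log2 fold change with a library left out ran from -2.07 to 2.72 for uc008qcz.2 and from -0.20 to 3.85 for uc007dee.2, lowest without Prx1Cre N42, and was -0.02 for uc008qcz.2 without Col1Cre N22. Depth limits ranks 1, 2, 20, 25 and 32, whose clear cell sarcoma medians rest on 9 to 19 reads. The causes of these changes were not tested.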
